A study of Mus musculus with 7 samples.

Results

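The INK4 family of cell cycle inhibitors comprises Cdkn2a, Cdkn2b, Cdkn2c and Cdkn2d, and the array carried 6 probes named for these 4 genes among 55681 probes with 36406 gene names. The members were every probe, other than control spots, whose gene name in the scanner files equalled 1 of the 4 symbols, and each probe was read separately. Cdkn2a and Cdkn2b had 2 probes each, and Cdkn2c and Cdkn2d had 1 each.

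INK4 proteins bind the kinases CDK4 and CDK6 and block their activation by D-type cyclins, which leaves the RB proteins active and holds back E2F-driven entry into S phase. Cdkn2a encodes p16INK4a and, from another first exon and reading frame, ARF, which restrains MDM2 and so stabilises p53. Cdkn2b encodes p15INK4b, Cdkn2c p18INK4c and Cdkn2d p19INK4d, and p16INK4a is widely used as a marker of cellular senescence.

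The study profiled satellite cells, the resident stem cells of skeletal muscle, on 7 Agilent 1-colour arrays. The 4 geriatric arrays were of male C57BL/6 mice aged 28, 28, 29 and 30 months, and the 3 young arrays of male C57BL/6 mice aged 2, 2 and 3 months. Cells of resting muscle were sorted as positive for integrin α7 and CD34 and negative for Sca1, CD11b, CD45 and CD31, and amplified cDNA was labelled with Cy3. The labels record no transgene or treatment in either group, and the sources used here do not say whether a sample is 1 mouse or pooled mice, so p-values cover only the spread between samples.

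Geriatric replicates 1 and 2 carried 1 shared sample name in their descriptions, while their titles number them as separate biological replicates. For 95.4% of spots their signals were no further apart than 2 combined measurement errors, against 59.6% to 67.0% for the other pairs of arrays. Their spread was about the size of the measurement error, and they were counted as 1 sample, which left 3 geriatric against 3 young samples. Whether they are 1 RNA was not tested, and with all 4 geriatric arrays counted singly 103 probes passed limma in place of 6. The 75th percentile of signal was 1330 to 1589 on the geriatric arrays and 1446 to 1612 on the young arrays, and the small number of arrays limits the precision of every value. All 10 satellite cell markers, Pax7 and Itga7 among them, were well above background on all 7 arrays. Their summed signals were 155 to 169 times the array's 75th percentile in geriatric and 142 to 175 times in young samples. Of the 10, 6 were higher and 4 lower in geriatric samples, and none passed. Itga7, the gene of a sorting antigen, differed by -0.44 on the log2 scale with non-overlapping groups (limma adjusted p = 0.720). Of all tested probes, 5.89% had non-overlapping groups that were lower in geriatric cells.

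Sequences are shown first for the probes of Cdkn2a and Cdkn2b, because each of these genes was read by 2 probes. All probes are 60 bases long, and the first 30 bases are printed 5′ to 3′ as the scanner files give them. On mm9, the build of the array files, the probes lie on the minus strand at chr4:88920543-88920602, chr4:88920405-88920464, chr4:88952276-88952335 and chr4:88952720-88952779 in the order shown.
Cdkn2a probe A_55_P2008438: cttctagcgatgctagcgtgtctagcatgt
Cdkn2a probe A_55_P2008437: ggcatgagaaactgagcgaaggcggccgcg
Cdkn2b probe A_55_P1988183: ccagtgatgaattgtagtggtagcaggtta
Cdkn2b probe A_55_P1979526: ttgagcctcaccttgaagccaaggggatca

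Both Cdkn2a probes are annotated in the scanner files to the same 2 RefSeq transcripts. They lie at positions 703 and 841 of the first, which puts their starts 138 bases apart. Each is also annotated to 2 Ensembl transcripts, and only part of these is common to both probes. Whether this bears on their different values was not tested. Neither probe separates the transcript of p16INK4a from that of ARF, so the 2 products of Cdkn2a cannot be told apart here. The Cdkn2b probes start 444 bases apart in 1 RefSeq transcript. The Cdkn2c probe lies at chr4:109333508-109333567 and the Cdkn2d probe at chr9:21092934-21092993. The Cdkn2d probe is annotated to 2 RefSeq transcripts, of which 1 is a predicted model.

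The start regions of Cdkn2a and Cdkn2b are shown because Cdkn2a has 2 starts and Cdkn2b is its neighbour. Each is the 250 bases upstream of a RefSeq start on GRCm38.p6, printed on the gene's own minus strand, with motif matches in capitals. The 2 Cdkn2a starts lie 12427 bases apart, and the upstream one is listed first.
Cdkn2a upstream start, chr4:89294620-89294869: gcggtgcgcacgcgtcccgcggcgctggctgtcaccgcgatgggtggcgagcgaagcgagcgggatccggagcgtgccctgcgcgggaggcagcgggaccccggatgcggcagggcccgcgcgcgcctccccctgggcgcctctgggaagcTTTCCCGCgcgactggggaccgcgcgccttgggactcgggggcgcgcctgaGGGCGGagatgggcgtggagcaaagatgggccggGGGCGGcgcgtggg
Cdkn2a downstream start, chr4:89282193-89282442: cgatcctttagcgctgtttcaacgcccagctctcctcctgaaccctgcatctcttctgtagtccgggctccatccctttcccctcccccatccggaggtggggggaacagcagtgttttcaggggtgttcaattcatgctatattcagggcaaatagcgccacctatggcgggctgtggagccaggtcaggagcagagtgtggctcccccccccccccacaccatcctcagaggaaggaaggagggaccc
Cdkn2b start, chr4:89311033-89311282: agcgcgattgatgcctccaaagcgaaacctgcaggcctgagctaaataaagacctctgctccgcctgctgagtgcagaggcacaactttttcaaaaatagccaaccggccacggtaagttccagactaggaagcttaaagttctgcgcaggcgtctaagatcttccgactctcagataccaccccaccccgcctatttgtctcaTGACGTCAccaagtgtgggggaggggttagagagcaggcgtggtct

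All 4 genes matched the RefSeq table, with 6 start regions between them. Motifs were searched on both strands as the GC box GGGCGG, the cyclic AMP response element TGACGTCA, the E-box CACGTG, the E2F elements TTTGGCGC and TTTCCCGC, and the TATA element TATAAA, and no matches overlapped. The upstream Cdkn2a region held 2 GC boxes and 1 TTTCCCGC, and it had 40 CpG dinucleotides and 78.4% G and C. The downstream Cdkn2a region held none of the motifs, with 7 CpG dinucleotides and 60.0% G and C. The Cdkn2b region held 1 TGACGTCA, with 12 CpG dinucleotides and 53.6% G and C. Among all 32851 start regions of the table, 32.7% held GGGCGG, 1.55% TGACGTCA and 0.895% TTTCCCGC, and the medians were 6 CpG dinucleotides and 52.4% G and C. The Cdkn2d region and the upstream Cdkn2c region held 3 GC boxes each, and the downstream Cdkn2c region held none. These matches describe letters in the window and say nothing of binding in these cells.

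The background filter, which asks for 3 or more of the 7 arrays well above background, left 41257 probes to test, and all 6 INK4 probes were among them. All 6 were higher in geriatric cells on average, with a median difference of 0.76 on the log2 scale, where 49.1% of all tested probes were higher and the median was -0.01. The median of the 6 was 0.47 with normexp background correction and quantile normalization. With centring on the array median it was 0.67, and 16173 of the 41257 probes were higher. None of the 6 passed limma at an adjusted p of 0.05 over all tested probes, a threshold that 0.0145% of tested probes passed. The groups did not overlap for 1 of the 6, the brighter Cdkn2a probe, and 6.91% of tested probes had non-overlapping groups that were higher in geriatric cells. Probes of 1 gene share its RNA and the genes were chosen with earlier results of these data known, so the shared direction carries no test. In these bulk samples, more cells that express a gene and more of its RNA per cell cannot be told apart.

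**Figure D1:**
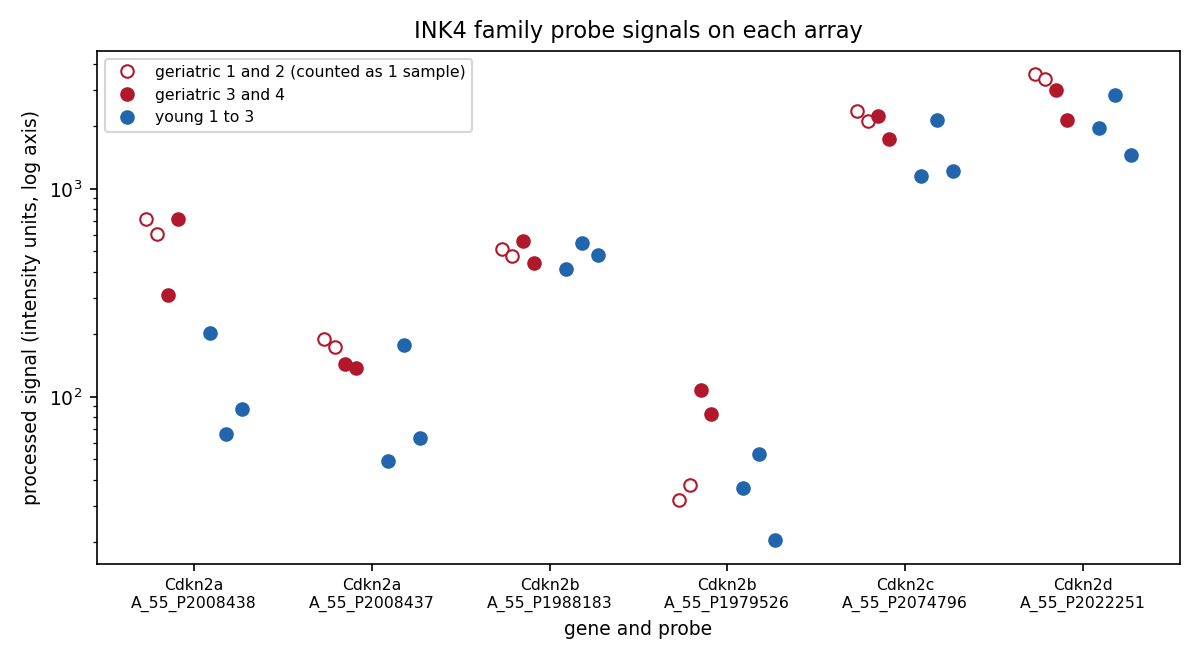
Processed signal (intensity units, log axis) of each INK4 probe on each array, geriatric in red at the left of each pair and young in blue at the right, with open points for the 2 geriatric arrays counted as 1 sample. Only for Cdkn2a probe A_55_P2008438 do all geriatric points (308 to 717) lie above all young points (66.4 to 203), and heights of different probes are not comparable.

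Cdkn2a, read by probe A_55_P2008438, had processed signals of 712, 607, 308 and 717 on geriatric arrays 1 to 4, against 203, 66.4 and 87.5 on young arrays 1 to 3. Every geriatric array was higher than every young array, although geriatric array 3 stood nearer to young array 1 than to the other geriatric arrays. The spots were 9.96 to 20.4 times their local background on geriatric arrays and 3.28 to 6.84 times on young arrays. The mean log2 level, relative to the array's 75th percentile, was -1.48 ± 0.78 in geriatric and -3.85 ± 0.90 in young samples (SD, n = 3 each). The difference was 2.37 on the log2 scale with a standard error of 0.59, a 5.17-fold higher signal with a 95% interval of 1.89 to 14.1 that is not adjusted for the number of probes. It did not pass limma (adjusted p = 0.431, unadjusted p = 0.00734, rank 702 among tested probes), and 4.19% of tested probes were higher at an unadjusted p under 0.05. The exact permutation test gave p = 0.1, the smallest p that 3 against 3 samples allow.

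The spread between samples was large for this Cdkn2a probe. Its residual SD of 0.84 lay at the 81.6th percentile of tested probes. Its difference lay at the 99.1th percentile of the signed differences, counted from the most negative to the most positive. Geriatric arrays 1 and 2, the arrays counted as 1 sample, differed by 0.07 on the log2 scale. With normexp background correction and quantile normalization the difference was 1.73 (limma adjusted p = 0.380). On the array row (the first digit of the array position in the descriptions) that held samples of both groups, with geriatric array 1 and young arrays 1 to 3, the difference was 2.70, which rests on 1 geriatric array with no replicate. The other row held geriatric arrays only and gave no value, so a fit with the row as a block makes this same contrast. With 4 geriatric samples counted, the difference was 2.44 (limma adjusted p = 0.156).

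The dimmer Cdkn2a probe, A_55_P2008437, had processed signals of 190, 173, 143 and 138 on geriatric arrays 1 to 4, against 49.4, 177 and 63.7 on young arrays 1 to 3. Young array 2 lay within the geriatric values and the other young arrays lay below all of them, so the groups overlapped. The difference was 0.95 with a standard error of 0.49 on the log2 scale (limma adjusted p = 0.762, exact permutation p = 0.3). Without young replicate 2 it was 1.50 (limma adjusted p = 0.275). The brighter probe ordered the young arrays otherwise, with its lowest signal on young array 2.

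The 2 Cdkn2a probes' differences stood 1.42 apart on the log2 scale, with overlapping groups (exact permutation p = 0.3). Over the 6 samples the levels of the 2 probes correlated at r = 0.388 and rho = 0.257, given as a description. When their log2 levels were averaged to 1 value per gene, Cdkn2a differed by 1.66 (limma adjusted p = 0.292).

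The authors' value table, a second reading of the same arrays, did not carry the scanner values of the Cdkn2a probes under their own row numbers. Of its 62975 rows, 3 deviated by more than 1 log2 unit from the scanner's mean signal of the same feature on at least 1 array, and the largest deviation among all other rows was 0.593. The 3 rows were those of Cdkn2a probe A_55_P2008438, of Cdkn2a probe A_55_P2008437 and of probe A_30_P01032511, which is named for an intergenic transcript on chromosome 10. These deviations were 3.60, 1.27 and 2.18.

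The row numbered for A_30_P01032511 held the scanner profile of the dimmer Cdkn2a probe to within 0.0364 log2 units once the table was put on the scanner scale, and the next best of all features was 0.232 away. The row numbered for that dimmer Cdkn2a probe held the profile of A_30_P01027632, from the same chromosome 10 transcript, to within 0.0555, and the next best was 0.571 away. The row numbered for the brighter Cdkn2a probe lay at background level, where 882 features matched it within 0.2 log2 units, and so could not be tied to a single feature. The table as used here had no row for A_30_P01027632, and none of the 3 rows held the scanner profile of the brighter Cdkn2a probe.

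Read by row number, the authors' table put geriatric minus young at 0.09 for the brighter Cdkn2a probe (limma adjusted p = 0.942) and at 1.72 for the dimmer one (limma adjusted p = 0.337). With rows matched by scanner profile, a reading chosen after seeing the data, the dimmer probe differed by 0.43 (limma adjusted p = 0.796) and the brighter probe had no value. Which placement is right was not tested. On the scanner files the spots of the 4 probes lay within 0.914 pixels of their grid positions on every array. The 99th percentile over all spots was 1.02 to 1.12 pixels. Grid positions do not depend on the probe names, so these values cannot tell which placement is right. In the scanner files A_30_P01027632 itself differed by 2.89 with a standard error of 0.77 (limma adjusted p = 0.486). It was well above background on 4 geriatric and 2 young arrays. Under either placement 1 feature named for Cdkn2a had non-overlapping groups, beside 6.91% of all tested probes with such higher groups.

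**Figure D2:**
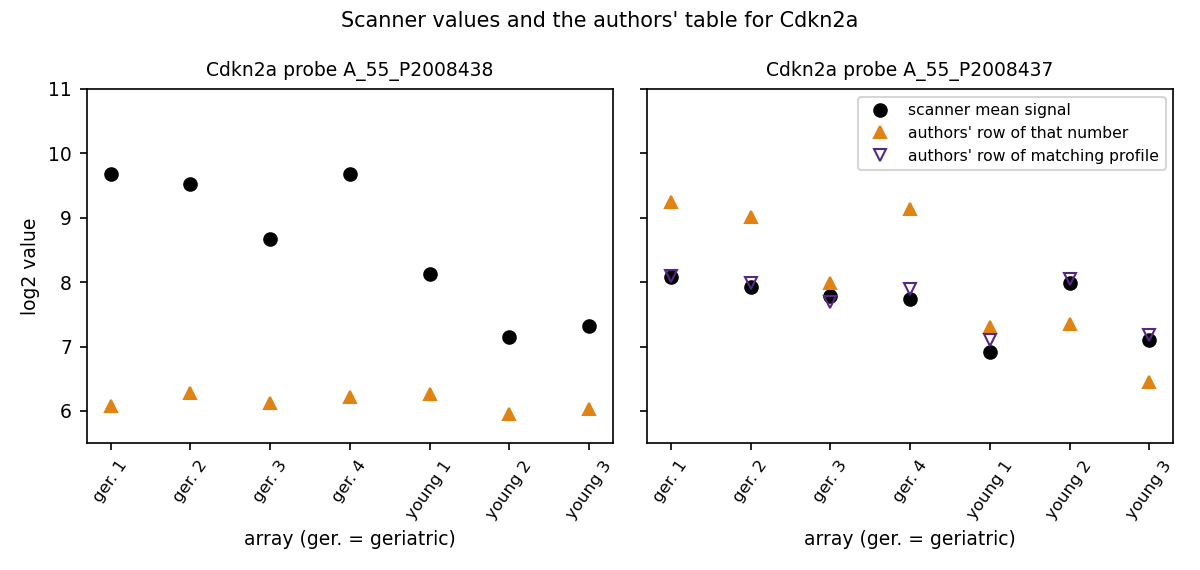
Log2 values of the Cdkn2a probes on each array, geriatric at the left and young at the right of each panel, from the scanner's mean signal (circles), the authors' row of the same number (upward triangles) and the authors' row of matching profile (downward triangles). For A_55_P2008438 the authors' row lies near 6 on every array, and for A_55_P2008437 the row of matching profile lies near the scanner values.

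Cdkn2b, the neighbour of Cdkn2a and an INK4 inhibitor known for its induction by TGF-β in human cells, had processed signals at probe A_55_P1988183 of 516, 477, 560 and 439 on geriatric arrays 1 to 4, against 412, 549 and 483 on young arrays 1 to 3. The 2 groups covered nearly the same range. The difference was 0.11 with a standard error of 0.18 on the log2 scale (limma adjusted p = 0.934). The 95% interval of the fold, 0.798 to 1.46, takes in no change as well as a 1.46-fold higher level, and the probe's residual SD of 0.13 lay at the 7.5th percentile of tested probes.

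The dimmer Cdkn2b probe, A_55_P1979526, had processed signals of 32.1, 37.8, 108 and 82.3 on geriatric arrays 1 to 4, against 36.4, 53.2 and 20.4 on young arrays 1 to 3. It was well above background on 3 of the geriatric and 2 of the young arrays, so its values lay close to the background. Geriatric arrays 3 and 4 were above all young arrays, and geriatric arrays 1 and 2 were within the young range. The difference was 1.04 with a standard error of 0.56 on the log2 scale (limma adjusted p = 0.771). With normexp it was 0.35 (limma adjusted p = 0.794), and it was 0.34 in the authors' table (limma adjusted p = 0.800). Within the array row that held both groups, where geriatric array 1 is the single geriatric array, it was -0.14. The 2 Cdkn2b probes' differences stood 0.94 apart (brighter minus dimmer, -0.94) with overlapping groups (exact permutation p = 0.3). Averaged to 1 value per gene, Cdkn2b differed by 0.58 (limma adjusted p = 0.771).

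Cdkn2c, whose product p18INK4c binds CDK6 and CDK4, had processed signals of 2370, 2119, 2246 and 1731 on geriatric arrays 1 to 4, against 1146, 2145 and 1224 on young arrays 1 to 3. Young array 2 lay within the geriatric values, and the other young arrays lay below them. The difference was 0.57 with a standard error of 0.29 on the log2 scale (limma adjusted p = 0.750, exact permutation p = 0.2), a 1.48-fold higher signal with a 95% interval of 0.910 to 2.41. Without young replicate 2 the difference was 0.85 (limma adjusted p = 0.427).

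Cdkn2d, whose product p19INK4d likewise inhibits CDK4 and CDK6, had processed signals of 3560, 3358, 2997 and 2144 on geriatric arrays 1 to 4, against 1949, 2814 and 1456 on young arrays 1 to 3. Geriatric array 4 was below young array 2, and the groups overlapped on these 2 arrays. The difference was 0.55 with a standard error of 0.31 on the log2 scale (limma adjusted p = 0.784, exact permutation p = 0.2), a 1.46-fold higher signal with a 95% interval of 0.854 to 2.50.

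**Figure D3:**
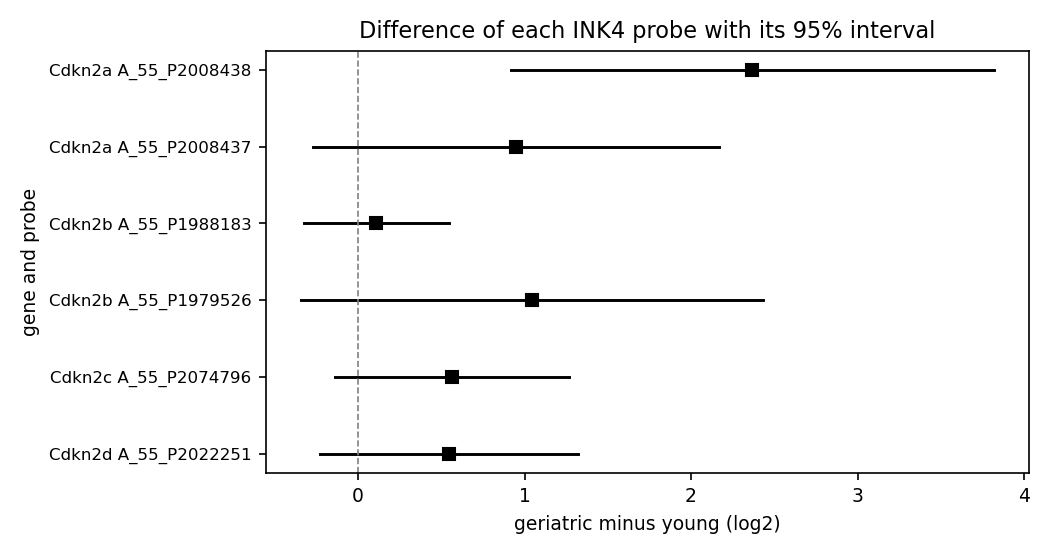
Difference of each INK4 probe, geriatric minus young on the log2 scale, as a square with its 95% interval from limma, not adjusted for the number of probes. Every square lies to the right of 0, between 0.11 and 2.37, and only the interval of Cdkn2a probe A_55_P2008438 lies wholly above 0.

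Over the 6 samples the Pearson correlations between INK4 probes were all above 0, from 0.057 to 0.976. Young array 2 had the highest young signal for Cdkn2b, Cdkn2c, Cdkn2d and the dimmer Cdkn2a probe, and the lowest for the brighter Cdkn2a probe. Cdkn2c and Cdkn2d correlated at r = 0.909 and rho = 1, and Cdkn2c and the dimmer Cdkn2a probe at r = 0.976 and rho = 0.771. The brighter Cdkn2a probe correlated at r = 0.430 with Cdkn2c, 0.508 with Cdkn2d and 0.057 with the brighter Cdkn2b probe. These values describe 6 samples that share the group difference and the array scaling.

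Differences between members were tested on the log ratio of their brighter probes within each sample, over 6 pairs of genes. The log ratio of Cdkn2a to Cdkn2b averaged 0.08 ± 0.83 in geriatric and -2.18 ± 1.04 in young samples (SD, n = 3 each). It was 2.26 higher in the geriatric samples, whose values lay above all young ones, yet the exact permutation test gave p = 0.1, the smallest it can give, and 0.24 after Benjamini-Hochberg adjustment over the 6 pairs. Cdkn2a stood 1.80 above Cdkn2c and 1.82 above Cdkn2d in its difference, with overlapping groups in both (exact permutation p = 0.2, adjusted 0.24). The log ratio of Cdkn2b to Cdkn2c differed by -0.46, and its geriatric values lay below all young ones (exact permutation p = 0.1, adjusted 0.24). The differences of Cdkn2c and Cdkn2d stood 0.02 apart (exact permutation p = 1).

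The kinases and cyclins that INK4 proteins act on showed no shared direction. Of Cdk4, Cdk6 and the 3 D-type cyclins, 4 genes were tested, of which 2 were higher and 2 lower, with a median of -0.15, and none passed. Over all 27395 gene names tested 49.6% were higher, with a median difference of -0.003. Ccnd2, which encodes cyclin D2, differed by 2.23 on the log2 scale with a standard error of 0.61 (limma adjusted p = 0.498). Its 3 geriatric levels of -3.05, -1.39 and -1.55 lay above its 3 young levels of -5.06, -3.39 and -4.24. Such non-overlapping higher groups were found for 6.91% of all tested probes. Ccnd1, which encodes cyclin D1, differed by -0.40 with a standard error of 0.29 (limma adjusted p = 0.829), and Cdk6 was not tested because no probe of it passed the background filter.

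Among RB proteins, E2F factors, E cyclins and Cdk2, 10 of 11 genes were tested, of which 1 was higher and 9 were lower, with a median of -0.36, and none passed. E2f2, an E2F activator of S phase genes, had the largest lower value, with log2 levels of 1.73 ± 0.08 in geriatric and 2.39 ± 0.38 in young samples (SD, n = 3 each). Its groups did not overlap (limma adjusted p = 0.641), and 5.89% of all tested probes had non-overlapping groups that were lower in geriatric cells. E2f5, the 1 gene that was higher, differed by 0.11 (limma adjusted p = 0.977). Ccne2 was not tested.

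On the ARF side, all 5 genes were tested, of which 1 was higher and 4 were lower, with a median of -0.30, and none passed. Mdm4, an inhibitor of p53, differed by -0.45 with a standard error of 0.18 and non-overlapping groups (limma adjusted p = 0.665). Such lower groups were found for 5.89% of all tested probes. Cdkn1a, the p53 target that encodes p21, differed by 0.05 with a standard error of 0.71 (limma adjusted p = 0.993). Its geriatric samples spanned 1.08 to 1.45, within young samples of -0.40 to 2.28.

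Of 14 genes listed as regulators of the Cdkn2a locus, mostly Polycomb proteins that silence it and ETS factors that act on it, 13 were tested. Of these, 7 were higher and 6 lower, with a median of 0.06, and none passed. Centring on the array median turned this median to -0.02. Ets1, an activator of p16INK4a expression in human cells, differed by 1.47 with a standard error of 0.53 and overlapping groups (limma adjusted p = 0.631). Ezh2, the histone methyltransferase of Polycomb repressive complex PRC2, differed by -0.84 with a standard error of 0.37 and overlapping groups (limma adjusted p = 0.702). Kdm2b differed by -0.39 with a standard error of 0.18 and non-overlapping groups (limma adjusted p = 0.708), beside 5.89% of all tested probes with such lower groups.

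Of the other CDK inhibitors, all 4 were tested, of which 1 was higher and 3 were lower, with a median of -0.52, and none passed. Cdkn3, a phosphatase that acts on CDK2, differed by -1.38 with a standard error of 0.40 and non-overlapping groups (limma adjusted p = 0.527). Cdkn1b also had non-overlapping groups, with a difference of -0.20 and a standard error of 0.17 (limma adjusted p = 0.860). Of all tested probes, 5.89% had non-overlapping groups that were lower in geriatric cells. The 1 gene that was higher was Cdkn1a, described above.

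**Figure D4:**
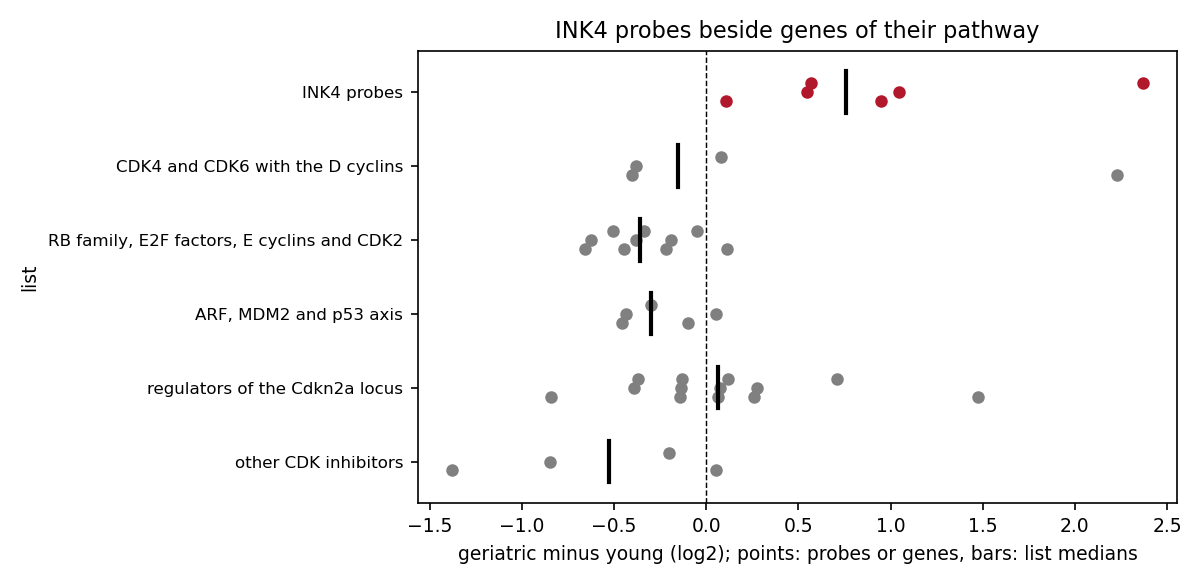
Geriatric minus young differences (log2) of the 6 INK4 probes in red in the top row and of the tested genes of 5 pathway lists in grey, with black bars at each median. The INK4 median is 0.76, and the list medians run between -0.52 and 0.06.

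Around Cdkn2a and Cdkn2b, the array held 66 other probes within 500 kb, of which 27 were tested and 30 were not above background on any array. Of the tested neighbours 13 were higher and 14 lower, with a median of -0.10, and none passed. Mtap, a methionine salvage enzyme and the nearest tested gene with a symbol of known function, was at -1.17 ± 0.56 in geriatric and -0.94 ± 0.49 in young samples (SD, n = 3 each), a difference of -0.22 (limma adjusted p = 0.938). Non-overlapping groups were found at 1 neighbour that was higher and 1 that was lower. Over all tested probes these shares were 6.91% and 5.89%. The higher one, an intergenic transcript, differed by 0.25 with a standard error of 0.17 (limma adjusted p = 0.822). The lower one, an unnamed transcript near the interferon alpha genes, differed by -3.48 with a standard error of 0.87 (limma adjusted p = 0.442), but it was above background on only 1 of the 4 geriatric arrays, so the size is not well measured. Dmrta1 was not above background on any array.

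**Figure D5:**
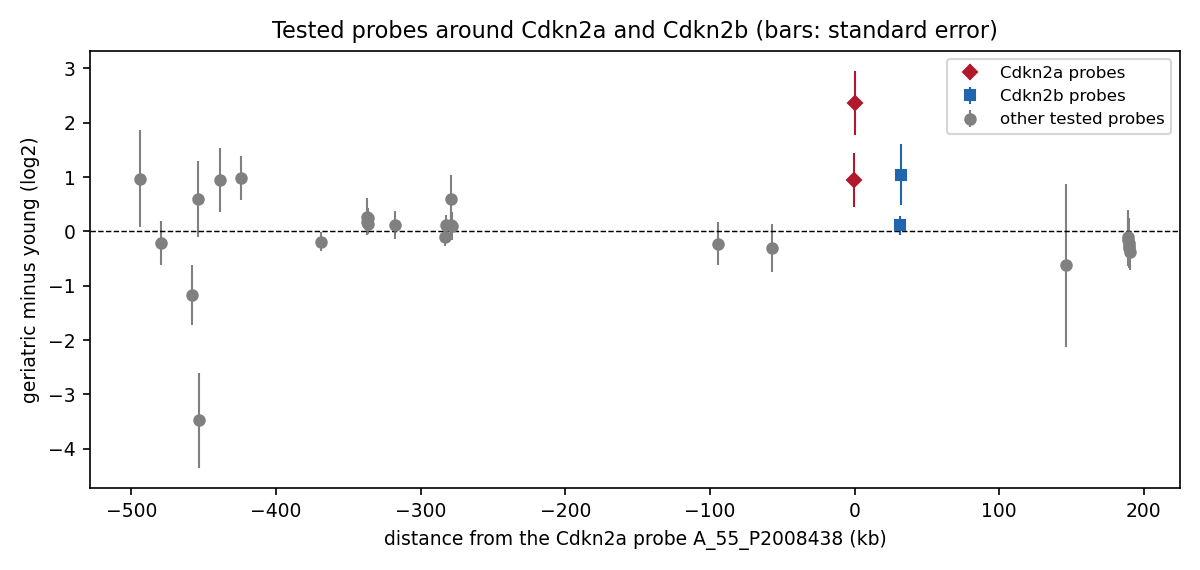
Geriatric minus young difference (log2, bars of 1 standard error) of every tested probe by its distance in kb from Cdkn2a probe A_55_P2008438. The Cdkn2a probes stand at 2.37 and 0.95, the Cdkn2b probes at 0.11 and 1.04, and the neighbouring probes scatter around -0.10.

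The named genes whose levels followed the brighter Cdkn2a probe most closely over the 6 samples included Calm3, Tas2r120, Diablo and Trpm5, with Pearson correlations of 0.995, 0.985, 0.977 and 0.976. They were among the 5 highest of all tested probes with a gene symbol, and a few high values over 6 samples are given here as a description. Calm3 encodes a calmodulin and Diablo a mitochondrial protein released in apoptosis. Their differences were small beside that of Cdkn2a, at 0.44 for Calm3 and 0.57 for Diablo on the log2 scale (limma adjusted p = 0.707 and 0.646).

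Markers of other cell types were set beside the INK4 values as summed signals relative to the array's 75th percentile. Fibro-adipogenic markers, of which 7 of 9 tested were higher, summed to 42.9 to 51.6 in geriatric and 32.8 to 42.9 in young samples. Pdgfra was not above background on any array, and Col3a1, the brightest of them, differed by -0.13 (limma adjusted p = 0.949). Mfap5 differed by 2.45 and Dpt by 0.74 (limma adjusted p = 0.657 and 0.409). Both had non-overlapping groups, and 6.91% of all tested probes had such groups that were higher in geriatric cells. Lymphocyte markers summed to 1.28 to 1.50 in geriatric and 1.05 to 1.17 in young samples. Among the 4 tested, 3 were higher and 1 lower, and Ms4a1 and Cd3g were among those not above background on any array. Cd79a differed by 1.27 and Cd4 by 0.19, both with such non-overlapping higher groups (limma adjusted p = 0.288 and 0.865). Macrophage markers summed to 96.2 to 115 in geriatric and 92.0 to 102 in young samples, with 4 of 7 tested higher. Most of the sum was the brightest of 3 tested Itgam probes, which differed by 0.06 (limma adjusted p = 0.968). Lyz2 and C1qa were not above background. Endothelial markers summed to 8.45 to 12.1 in geriatric and 7.70 to 9.64 in young samples, with 3 of 6 tested higher. Myofibre markers summed to 6.73 to 10.4 in geriatric and 5.87 to 6.89 in young samples, with 6 of 7 tested higher. Among them Actn3 differed by 0.63 with non-overlapping groups (limma adjusted p = 0.697). Pericyte and smooth muscle markers summed to 47.6 to 53.3 in geriatric and 35.9 to 59.0 in young samples, with 5 of 8 tested higher. Within the last list, Pdgfrb, a receptor of pericytes and fibroblasts, was at -1.39 ± 0.14 in geriatric and -3.62 ± 0.27 in young samples (SD, n = 3 each). Its difference of 2.24, with a standard error of 0.21 and non-overlapping groups, had a limma adjusted p of 0.0887 and was near that of the brighter Cdkn2a probe in size. Cspg4, a pericyte proteoglycan, differed by 0.39 with non-overlapping groups (limma adjusted p = 0.715). No marker of these lists passed, and their part in the INK4 differences was not tested.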

How the data were processed

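Per the file headers, the scanner images of the 7 arrays were turned into spot intensity values by Feature Extraction 10.7.3.1. The deposited processed signal intensity is background-subtracted and spatially detrended, per the file headers. The authors' value table holds log2 values, with a median of 8.02 in each column of the deposited table. The sources used here do not give the background correction and normalization behind them. They correlated with log2 mean signal at 0.9995 to 0.9998 on each array.

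Levels are log2 processed signals, relative to each array's 75th percentile. Control spots and 124 to 229 outlier spots per array were left out, and no spot was saturated. A filter of 3 or more arrays well above background kept 41257 of 55681 probes, which were tested with limma 3.58.1 in R 4.3.3 (lmFit, eBayes, 2-sided, Benjamini-Hochberg over all tested probes, threshold 0.05). All arrays lay on 1 slide with 1 scan date. Geriatric replicates 1 and 2 were averaged. Exact permutation tests were 2-sided. Genes of the lists were read by their brightest tested probe, and the text names the largest difference in each direction, all members, and the 5 named genes of highest correlation with the brighter Cdkn2a probe, of which 1 is not reported here. The fit was tested on simulated data. Alternatives covered background correction, scaling, filters, the authors' table, blocks and left-out replicates. Gene names are those of the array design. Probe coordinates are on mm9, and start regions come from RefSeq on GRCm38.p6. Figures were drawn with matplotlib in Python. The members and lists were chosen with earlier results of these data known.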

Additional observations from a re-analysis of the deposited data

How the results depend on the processing

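No INK4 probe passed under any alternative that was run, and the Cdkn2c, Cdkn2d and brighter Cdkn2b differences were above 0 in all of them. Cdkn2a differences were above 0 in all that gave them a value. The brighter Cdkn2a probe had none with rows matched by profile. Its row by number did not hold its scanner profile, so the sign there cannot be read as that of the scanner probe. Adjusted p for Cdkn2a ranged between 0.156 and 0.942, and its difference between 0.09, in the authors' table by row number, and 2.88. The dimmer Cdkn2b probe turned to -0.14 with the array row as a block and within the row that held both groups, because both settings compare geriatric array 1 alone with the young arrays and so leave out geriatric arrays 3 and 4, its highest. Leaving out 1 replicate at a time gave 2.03 to 2.88 for Cdkn2a, 0.62 to 1.50 for its dimmer probe, 0.04 to 0.21 for Cdkn2b, 0.64 to 1.54 for its dimmer probe, 0.41 to 0.85 for Cdkn2c and 0.28 to 0.79 for Cdkn2d.

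The count of probes that passed limma was 6, and it depended on the setting. It was 2 with normexp, 2 with the authors' table by row number or by matched profile, 1 with an intensity trend and 103 with 4 geriatric arrays counted as 4 samples. It was 0 with no filter on dim probes, 0 with the filter on all 7 arrays and 0 with the array row as a block, where 4622, 2708 and 2502 probes had an unadjusted p under 0.05. Replicates left out singly gave 0 to 10, with 0 without young replicate 1, 2 or 3, without geriatric replicate 3 or 4, or without the averaged sample (2452, 3208, 2552, 2880, 3160 and 3157 probes at an unadjusted p under 0.05), and 10 without geriatric replicate 1. With the replicate block the count was 0 (3163 at an unadjusted p under 0.05) and the limma adjusted p of Cdkn2a was 0.463, with a difference of 2.37 that such a block cannot move. Samples of the same number deviated from their group means with correlations of -0.037, 0.027 and 0.038, so the numbers were not taken to pair the samples. Signal over background limits the dimmer Cdkn2b probe, at 2.43 to 4.06 times its local background on geriatric and 2.04 to 2.82 times on young arrays. The matched reading of the authors' table was added after seeing the data.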
